A study of Homo sapiens with 16 samples.

Results

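OCI-AML3 cells, a human acute myeloid leukaemia line, were compared after 3 h with 0.1 µM Am80 and without treatment, and the change was read gene by gene across the transcriptome. The comparison took every library labelled Am80 alone (3) and every library labelled untreated (4), 7 of the 16 libraries of the series. No combination with an LSD1 or GCN5 inhibitor was part of it, and the labels name no vehicle for the untreated cells. A further 3 libraries from cells given 0.1 µM ATRA for 3 h served for a comparison between both retinoids. All libraries come from a single cell line, and no source says that replicates are separate cultures. The p-values thus measure the spread between libraries of the same group, which may be technical. That spread was estimated over all 16 libraries, also those given the inhibitors.

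Am80 (tamibarotene) is a synthetic aromatic amide retinoid that prefers the retinoic acid receptor RARA, whereas all-trans retinoic acid (ATRA) is the natural polyene ligand of every RAR. RARs sit on DNA as partners of RXRs, commonly at direct repeats of a short half-site, and hold corepressors there until ligand exchanges them for coactivators. Among the best known direct targets are the genes that degrade or carry retinoic acid and the receptor gene RARB, and in myeloid leukaemia cells retinoids are known for driving granulocytic maturation.

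The promoters of called genes were read for the classical RAR:RXR element, a DR5, to see how many carry it near the start. A DR5 was taken as 2 half-sites in the same direction, 5 bases apart, each half-site being AGGTCA, in which the first letter may also be G and the third also T, on either strand. The windows were RefSeq promoters of GRCh38.p14, reaching from 250 bases before to 50 bases after each annotated start, and 602 of the 896 genes called higher and 382 of the 565 called lower had one. Of all 35093 promoters, 0.0883% held a DR5. Of those of genes called higher it was 4 of 961 (0.416%), of those of genes called lower 0 of 590, and of those of genes higher by at least 4-fold 4 of 160 (2.5%). The 4 belong to CYP26A1 (chr10:93073643-93073892, plus strand), RARB (chr3:25428013-25428262, plus strand), BATF2 (chr11:64990278-64990527, minus strand) and TRIM31 (chr6:30113091-30113340, minus strand). BATF2 and TRIM31 were chosen after their values were seen. Most promoters of genes higher by at least 4-fold held no DR5, so the 4 printed ones do not stand for that group. The 250 bases before each start follow in the direction of the gene, with the DR5 in capitals.
CYP26A1: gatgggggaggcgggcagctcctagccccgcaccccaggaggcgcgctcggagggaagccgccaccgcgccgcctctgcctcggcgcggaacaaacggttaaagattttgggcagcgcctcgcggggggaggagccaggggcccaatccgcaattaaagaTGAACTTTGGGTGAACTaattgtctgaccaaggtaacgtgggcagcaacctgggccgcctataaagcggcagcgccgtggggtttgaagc
RARB: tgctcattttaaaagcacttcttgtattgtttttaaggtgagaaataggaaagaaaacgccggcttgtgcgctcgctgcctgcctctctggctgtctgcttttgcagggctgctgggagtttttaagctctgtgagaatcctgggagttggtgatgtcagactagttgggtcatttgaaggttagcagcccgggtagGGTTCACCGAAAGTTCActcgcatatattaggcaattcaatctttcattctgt
BATF2: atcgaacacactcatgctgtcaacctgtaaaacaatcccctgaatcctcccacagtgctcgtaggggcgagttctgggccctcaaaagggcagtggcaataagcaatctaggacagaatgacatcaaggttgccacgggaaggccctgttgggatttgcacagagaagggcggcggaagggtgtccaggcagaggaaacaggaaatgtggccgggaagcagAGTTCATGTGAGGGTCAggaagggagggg
TRIM31: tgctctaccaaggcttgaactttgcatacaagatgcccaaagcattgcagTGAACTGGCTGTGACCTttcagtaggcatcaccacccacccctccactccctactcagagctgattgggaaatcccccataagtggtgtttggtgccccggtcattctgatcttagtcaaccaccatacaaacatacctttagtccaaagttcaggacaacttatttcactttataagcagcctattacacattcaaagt
The repeat ran from base -90 to -74 before the start of CYP26A1, from -53 to -37 before that of RARB, from -29 to -13 before that of BATF2 and from -200 to -184 before that of TRIM31. In CYP26A1 and TRIM31 it read on the opposite strand, as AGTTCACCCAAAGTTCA and AGGTCACAGCCAGTTCA. In the direction of the gene it read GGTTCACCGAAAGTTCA in RARB and AGTTCATGTGAGGGTCA in BATF2. Repeats spaced by 2 bases were found in no promoter of a called gene, and a repeat spaced by 1 base in that of RAP1GAP2 alone among them. A match describes letters in this window and is no measurement of receptor binding, and elements farther from the start were not searched.

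Library depth and the makeup of the reads were similar in kind but not equal between groups. The untreated libraries held 11963898 to 17929315 counted reads and the Am80 libraries 19254731 to 33789718, so every Am80 library was deeper than every untreated one. Mitochondrial genes took 6.21 to 6.95% of reads in untreated and 6.48 to 7.53% in Am80 libraries. Untreated replicate 4 and Am80 replicate 2, the deepest library, lay farthest from their group mates, with a median absolute log2 distance of 0.221 and 0.192 against 0.092 to 0.146 for the others, and their part in the results is given below by leaving them out. Myeloid identity genes matched the label: CD33 averaged 1360 normalized counts untreated and 1340 with Am80, SPI1 (the myeloid regulator PU.1) 4660 and 4660, and of 15 tested identity genes 1, CEBPB, was called. CD34 and KIT stayed near 1 count. Of 18 lymphoid markers CD3D, CD2, MS4A1 and IGHM had no read, and the summed level, 97.7% of it CD4, was 3900 to 4210 untreated and 3870 to 4110 with Am80. Of 16 erythroid and platelet markers the globin genes and PF4 had no read, and the sum was 314 to 357 untreated and 391 to 425 with Am80, with 1 member, ITGB3, called higher. The 14 markers of non-blood cells summed to 1060 to 1260 untreated and 2650 to 2860 with Am80, 95.2% of it from PECAM1, an adhesion molecule that leukocytes also carry, while EPCAM, CDH5 and VWF averaged under 3 counts.

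Within 3 h Am80 raised more genes than it lowered, and the rises were far larger than the falls. Of 14632 genes whose mean over the 7 libraries reached 10 normalized counts, 896 (6.12%) were called higher and 565 (3.86%) lower, 9.98% in all, a call being an adjusted p under 0.05 from limma and a change of at least 1.5-fold. The median change over all tested genes was -0.01 on the log2 scale. A change of at least 2-fold was seen in 494 of the genes called higher and 147 of those called lower, of at least 4-fold in 168 and 8, and of at least 16-fold in 30 and 0. The largest rise was 8.33 and the largest fall among genes with a mean of at least 50 in the higher group was -2.36. Every Am80 library lay above every untreated one in 869 of the 896 genes, and below in 538 of the 565. Over all tested genes the shares were 15.5% and 15%. The calls came from the same values, so this separation is no separate support for them. Protein-coding genes made up 760 of the genes called higher and 438 of those called lower. Without Am80 replicate 2 the counts were 856 and 498, of which 792 and 434 were also called with all libraries, and without both that library and untreated replicate 4 they were 913 and 622. With all libraries thinned to the depth of the shallowest they were 854 and 561. Rises were 61.3% of the calls, but 51.1% when libraries were scaled to total reads, with 786 genes higher and 751 lower. In bulk RNA a lower level per cell and a smaller share of cells cannot be told apart, and this holds for every gene below.

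**Figure D1:**
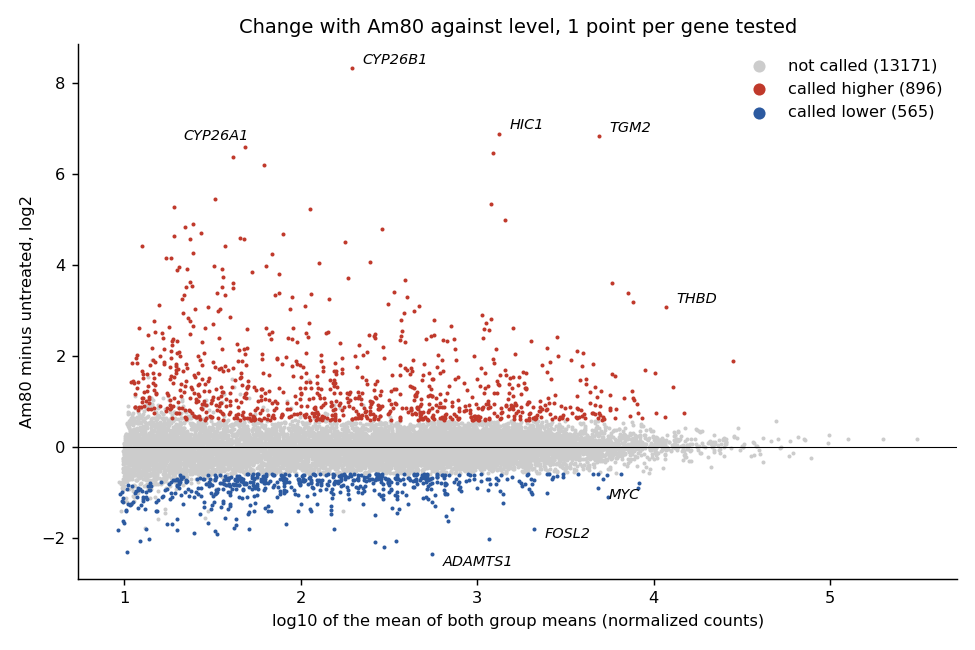
The log2 difference between Am80 and untreated cells (vertical) is plotted against the log10 of the mean of both group means in normalized counts (horizontal), with 1 point for each of 14632 genes, red for the 896 called higher and blue for the 565 called lower. Rises reach 8.33 for CYP26B1, whereas no point with a mean of at least 50 in its higher group falls below -2.36 (ADAMTS1).

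CYP26B1, which clears retinoic acid, had the largest rise of all genes, and CYP26A1 and DHRS3 were also among the 15 largest. Of 29 listed genes of retinoid metabolism and binding 16 were tested. Of these 5 rose and 1 fell (37.5% called, against 9.98% of all tested genes), with a median of -0.02. CYP26B1, a cytochrome P450 that hydroxylates retinoic acid, was counted at 0, 0, 0 and 1.11 in the untreated libraries and at 404, 326 and 436 in the Am80 libraries. The 1 untreated read against 1667 gave a ratio of 1330 with an exact 95% counting interval of 239 to 52600. Its sister enzyme CYP26A1 had no read in any untreated library and 98.4, 86.5 and 106 normalized counts with Am80, at least 111-fold higher against a floor of 3 reads over the untreated group. Both genes thus went from at most a single read to levels that all 3 Am80 libraries shared. These limits and intervals cover counting error only.

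DHRS3, which turns retinaldehyde back into retinol, read 25.1, 18.5, 32.4 and 33.2 untreated and 2494, 2254 and 2527 with Am80 (6.46 ± 0.14 on the log2 scale, SE, adjusted p = 8.61e-19, limma). STRA6, the membrane receptor for retinol-binding protein, read 20.9, 11.1, 22.4 and 19.9 untreated and 67.8, 84.4 and 81.7 with Am80, a rise of 2.05 ± 0.27. RBP4, the plasma carrier of retinol, rose by 1.52 ± 0.26 from a mean of 15.3 to 45.2. No Am80 library overlapped an untreated one for any of these. The aldehyde dehydrogenase ALDH1A3, which makes retinoic acid, went the other way, from 25.1, 23.1, 23.7 and 13.3 to 13, 8.8 and 5.06 (-1.21 ± 0.32, adjusted p = 0.00657, limma). That call rested on low counts and was lost without Am80 replicate 3 (-0.89, adjusted p = 0.052, limma). The remaining 10 tested members were not called and lay between -0.39 (ALDH1A1) and 0.18 (DHRS4). DHRS9, a retinol dehydrogenase, was lower in every Am80 library (2869 to 3025 against 3228 to 3954), with a difference of -0.24 on the log2 scale, short of the limit on the fold.

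**Figure D2:**
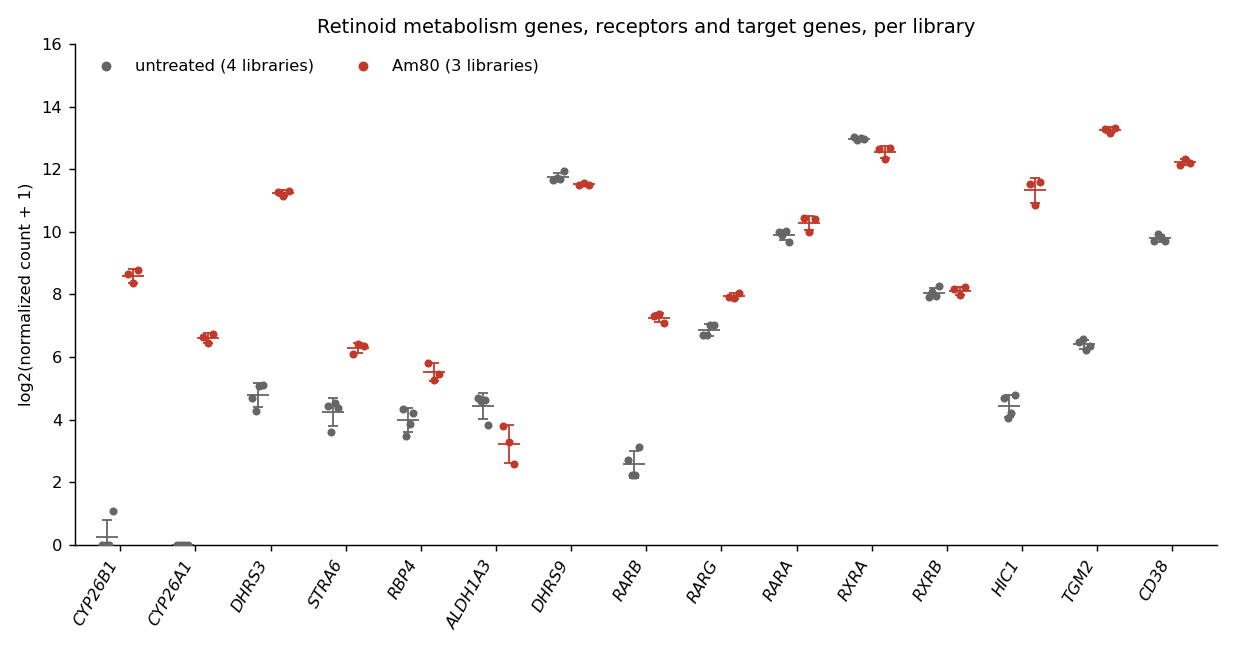
Each point is 1 library, as log2(normalized count + 1), for 4 untreated (grey) and 3 Am80 (red) libraries, and bars show the mean ± SD on that scale. CYP26B1, CYP26A1, DHRS3, HIC1, TGM2 and RARB stand far above the untreated points, whereas the points of RXRB and RARA overlap between the groups.

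Among the receptors, the transcripts of RARB and RARG rose and that of RARA, the receptor Am80 prefers, was not called. RARB read 5.58, 3.69, 3.74 and 7.76 untreated and 159, 165 and 135 with Am80 (4.68 ± 0.19, adjusted p = 6.11e-14, limma), and its promoter is 1 of those printed above. RARG read 103, 104, 130 and 130 untreated and 240, 235 and 263 with Am80, a rise of 1.08 ± 0.10. RARA read 1014, 961, 1045 and 819 against 1375, 1030 and 1351. The difference of 0.38 ± 0.09 (adjusted p = 0.00399, limma) missed the fold limit, and Am80 replicate 2 overlapped the untreated libraries. RXRA, the common partner, was lower in all 3 Am80 libraries (5172 to 6597 against 7793 to 8362), a difference of -0.42 that did not reach the fold limit, and RXRB differed by 0.07. The 5 tested receptors had a median of 0.38, and of 0.51 without Am80 replicate 2. Of 23 coregulators 3 rose and 0 fell (13% called, against 9.98% of all tested genes), with a median of 0.07. NCOA3, a coactivator of nuclear receptors, read 892, 1024, 958 and 671 untreated and 2615, 3084 and 2599 with Am80 (1.65 ± 0.10). NRIP1, a corepressor that binds liganded receptors, rose from 926 to 2110 (1.20 ± 0.10), and TBL1XR1, a part of the NCoR corepressor complex, by 0.66 ± 0.11, the last no longer called when both libraries that stood apart were left out (0.44). The corepressor NCOR1 differed by 0.14 and was not called.

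Most genes listed as retinoid targets in other cells rose: 13 of 21 tested were called higher and 0 lower (61.9% called, against 9.98% of all genes). Their median was 1.27 against -0.01 over all genes. HIC1, a transcriptional repressor, read 25.1, 15.7, 17.4 and 26.6 untreated and 2928, 1863 and 3099 with Am80 (6.89 ± 0.17). TGM2, the tissue transglutaminase, read 87.9, 94.2, 73.5 and 80.9 untreated and 9961, 9036 and 10194 with Am80 (6.84 ± 0.08). In both genes the groups were far apart, and Am80 replicate 2 was the lowest Am80 library. CD38, a surface ectoenzyme, rose from 892 to 4800 (2.43 ± 0.07). PLAAT4, BTG2, CDKN1A, SKIL, PRAM1, DUSP6, ASB2, IRF1 and ICAM1 were also among the genes called. TNFAIP2 (0.27), TNFSF10 (-0.26), ABCA1 (-0.13) and HOXA5 (0.08) were among those not called. The target list was drawn up with earlier results of these libraries known, so its count is a description. Of 26 HOX genes and cofactors 3 were higher and 0 lower (11.5% called, against 9.98% of all genes), and the list had a median of 0.03. HOTAIRM1, a long noncoding RNA of the HOXA cluster, read 78.1, 62.8, 66 and 72 untreated and 276, 286 and 258 with Am80 (1.96 ± 0.13), and PBX4, a HOX cofactor, rose by 1.51 ± 0.19. HOTAIRM1 is annotated as antisense, and because the strand setting of the counting is not given, its reads cannot be told apart from those of genes on the other strand. HOXA5 and HOXA9 (-0.25) were not called.

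Other genes among the 15 largest rises had varied roles. PTGES, the inducible prostaglandin E synthase, had 3 untreated reads in all and read 127, 107 and 132 with Am80, a ratio of 140 (exact 95% counting interval 47.5 to 680). SPIB, an ETS factor related to PU.1, read 4.18, 7.39, 4.98 and 3.32 untreated and 233, 194 and 229 with Am80 (5.24 ± 0.18). RHBDL3, a rhomboid-like membrane protein, went from 51.6, 62.8, 59.8 and 53.2 to 2389, 2216 and 2392 (5.34 ± 0.08). All 3 moved without overlap, which the rule for naming the largest rises required. FGR, a Src family kinase of myeloid cells, rose from 86.2 to 2780, SHE, an SH2-domain adaptor, rose by 4.79 ± 0.11, and SLC6A12, a betaine and GABA transporter, by 4.59 ± 0.24. Long noncoding RNAs were among them too: LINC02766 rose by 4.70 ± 0.34, and ENSG00000272482 from 2 reads over the untreated group to 72.4, 64.7 and 57.9. The unnamed gene ENSG00000288927 had no untreated read and 99.3, 72.5 and 76.7 with Am80, at least 93.9-fold higher. Below the 15 largest rises, and described for their promoters printed above, BATF2, a basic leucine zipper factor induced by interferon, read 15.3, 13.9, 8.72 and 19.9 untreated and 367, 288 and 365 with Am80 (4.51 ± 0.19), and TRIM31, a ubiquitin ligase, had 1 untreated read against 26, 23.3 and 25.3.

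Myeloid transcription factors changed in both directions at 3 h. Of 37 tested 4 rose and 6 fell (27.0% called, against 9.98% of all tested genes), with a median of -0.12. NFE2 read 280, 302, 301 and 330 untreated and 1017, 837 and 1064 with Am80 (1.67 ± 0.08). CEBPB, a leucine zipper factor of granulocytes and macrophages, read 872, 732, 735 and 1200 untreated and 2715, 1984 and 3051 with Am80 (1.55 ± 0.15). For both, Am80 replicate 2 was the lowest Am80 library and still above every untreated one. KLF2 rose by 1.23 ± 0.14 and BCL6, a transcriptional repressor, by 1.19 ± 0.09. KLF4, known for promoting monocytic fate, read 290, 320, 320 and 342 untreated and 136, 123 and 137 with Am80 (-1.26 ± 0.11). GATA2, a regulator of stem and progenitor cells, fell by 0.98 ± 0.13, ZEB1 by 0.80 ± 0.17 and TAL1 by 0.77 ± 0.16. PU.1 (SPI1, 0.00) and CEBPA (0.22), the central factors of the lineage, were not called.

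Of 16 granule genes 3 were higher and 1 lower (25% called, against 9.98% of all tested genes), with a median of -0.26, and the lower one, MMP25, was lost without Am80 replicate 2 (-0.48, adjusted p = 0.0833, limma), as was MMP8 (0.74, adjusted p = 0.085, limma). SERPINB1, an inhibitor of neutrophil proteases, read 1556, 1571, 1506 and 1831 untreated and 3486, 3486 and 3347 with Am80 (1.09 ± 0.06), and BPI, a bactericidal granule protein, rose from 6.09 to 19.3. LYZ, lysozyme, differed by -0.48 and was not called. Among 10 NADPH oxidase genes, of which 20% were called, NCF1 (p47phox) rose by 1.62 ± 0.09, from 973, 801, 898 and 1045 to 3056, 2381 and 3161. NCF1 has near-identical pseudogene copies, so its count is uncertain in how reads were shared among them.

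Of 38 myeloid surface genes 10 were higher and 3 lower (34.2% called, against 9.98% of all tested genes), with a median of 0.08. Rises made up 61.3% of the calls over all genes. CEACAM1, an adhesion receptor, read 8.37, 13.9, 4.98 and 11.1 untreated and 125, 161 and 132 with Am80 (3.80 ± 0.23). ICAM1, a ligand of leukocyte integrins, read 58.6, 52.6, 54.8 and 59.8 untreated and 279, 269 and 283 with Am80 (2.28 ± 0.09), and the integrin chain ITGAL, which pairs to bind ICAM1, rose from 829 to 2180 (1.39 ± 0.08). Neither gene's groups overlapped. The integrin chains ITGAM (CD11b, a marker of maturation, from 49.7 to 81.1, 0.70) and ITGAX (CD11c, 0.73) and the costimulatory ligand CD86 (0.82) were called higher too, while the monocyte receptor CD14 was not called (0.11). The scavenger receptor CD163 fell by 0.92 ± 0.17 and the inhibitory lectin CLEC12A by 0.82 ± 0.21. Of 7 tested leukocyte immunoglobulin-like receptors and LAIR genes LILRA5, LILRB2 (1.81 ± 0.15) and LILRB1 (0.85 ± 0.22) rose and none fell (42.9% called). The median was 0.38, and reads of these close relatives may be shared. Of 27 growth factor receptors 2 rose and 2 fell (14.8% called). MERTK, a receptor kinase for the clearance of dying cells, read 80.9, 75.7, 76 and 62 untreated and 345, 376 and 337 with Am80 (2.25 ± 0.09), IL6ST, the shared chain of the IL-6 family, rose by 0.72 ± 0.09, and IL7R and IL1R1 fell by 0.94 ± 0.17 and 0.81 ± 0.17. Of 19 Src family and myeloid kinases 2 were called (10.5%, near the 9.98% of all tested genes): FGR and LYN (0.83 ± 0.05, from 4400 to 7800) rose, while SYK (-0.05) and TYK2 (0.09) were not called.

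Secreted signals changed in both directions. Of 23 chemokines and their receptors 9 rose and 3 fell (52.2% called, against 9.98% of all tested genes), with a median of 0.48. CXCR5, the receptor for CXCL13, had 3 untreated reads in all and read 38.1, 45.6 and 60.8 with Am80, a ratio of 56.7 (19.1 to 277). ACKR3, a scavenging chemokine receptor, rose by 2.31 ± 0.32 and the chemokine CCL20 by 1.85 ± 0.27, both from low untreated levels. CXCL1, a neutrophil attractant, read 538, 572, 544 and 615 untreated and 234, 260 and 223 with Am80 (-1.24 ± 0.11), and the fractalkine receptor CX3CR1 fell by 0.94 ± 0.11. Of 25 cytokines and TNF ligands 5 rose and 4 fell (36.0% called), with a median of -0.01. HBEGF, an EGF family ligand, read 153, 134, 117 and 166 untreated and 991, 961 and 1026 with Am80 (2.80 ± 0.09), OSM, an IL-6 family cytokine, rose by 2.50 ± 0.17, its relative LIF by 1.57 ± 0.12 and TNFSF15 by 4.15 ± 0.34 from a mean of 1.25 to 35.6. PDGFA, a growth factor for mesenchymal cells, fell by 1.41 ± 0.16, and IL1RN, the natural blocker of the IL-1 receptor, by 0.70 ± 0.08.

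Genes of arachidonate metabolism changed in both directions. Of 15 tested 4 rose and 2 fell (40% called, against 9.98% of all tested genes), with a median of -0.13. PTGS1, the constitutive cyclooxygenase, read 265, 338, 331 and 319 untreated and 1808, 1899 and 1933 with Am80 (2.59 ± 0.08), and PTGIS, prostacyclin synthase, read 94.8, 83.1, 120 and 64.3 untreated and 693, 659 and 695 with Am80 (2.94 ± 0.14). Together with PTGES, 2 terminal synthases and a cyclooxygenase rose. ALOX5AP, the helper of 5-lipoxygenase, rose by 1.55 ± 0.09, while the gene of that enzyme, ALOX5, was not called (-0.51). PLA2G4A, the phospholipase that frees arachidonate, fell by 0.79 ± 0.07. PTGER4, a prostaglandin E2 receptor, read 480, 464, 531 and 475 untreated and 112, 91.6 and 116 with Am80 (-2.19 ± 0.11).

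Of 47 interferon response genes 5 were higher and 2 lower (14.9% called, against 9.98% of all tested genes), with a median of 0.06. IRF1, an interferon regulatory factor, read 445, 451, 494 and 484 untreated and 2188, 1898 and 2156 with Am80 (2.15 ± 0.06), and GBP4, a guanylate-binding GTPase, read 99, 97.9, 106 and 82 untreated and 831, 913 and 772 with Am80 (3.11 ± 0.10). The cytokine signalling inhibitors SOCS1 and SOCS3 rose by 1.76 ± 0.22 and 1.22 ± 0.26. IRF5 fell by 0.82 ± 0.09, and IFIT1 by 0.84 ± 0.24, the latter no longer called without both libraries that stood apart (-0.75, adjusted p = 0.0649, limma). Of 21 NF-kappaB genes BCL3, an atypical inhibitor that also coactivates, rose by 2.03 ± 0.13 and REL by 0.77 ± 0.12. In this list 0 were lower (9.5% called), and the median was -0.11. REL missed the fold limit without both libraries that stood apart (0.54).

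The 15 largest falls had varied roles. ADAMTS1, a secreted metalloprotease, read 964, 898, 976 and 879 untreated and 166, 190 and 186 with Am80 (-2.36 ± 0.11, adjusted p = 7.43e-13, limma). SLC1A3, a glutamate transporter, read 411, 465, 427 and 409 untreated and 84.5, 112 and 106 with Am80 (-2.08 ± 0.09). In both the highest Am80 library lay well under the lowest untreated one, and the rule for naming the largest falls required no overlap. RAB7B, a late endosomal GTPase, fell by 2.03 ± 0.08, the neuropeptide Y receptor NPY5R by 1.81 ± 0.22, the potassium channel KCNN2 by 1.81 ± 0.17 and the oxysterol receptor GPR183 by 1.57 ± 0.22. TENT5C, RAB3IL1, RTL3, PCDH9 and C3orf80 also belonged to the 15 largest falls, between -1.90 and -1.63. The AP-1 member FOSL2 read 3132, 3505, 3470 and 2988 untreated and 962, 895 and 956 with Am80 (-1.80 ± 0.07).

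**Figure D3:**
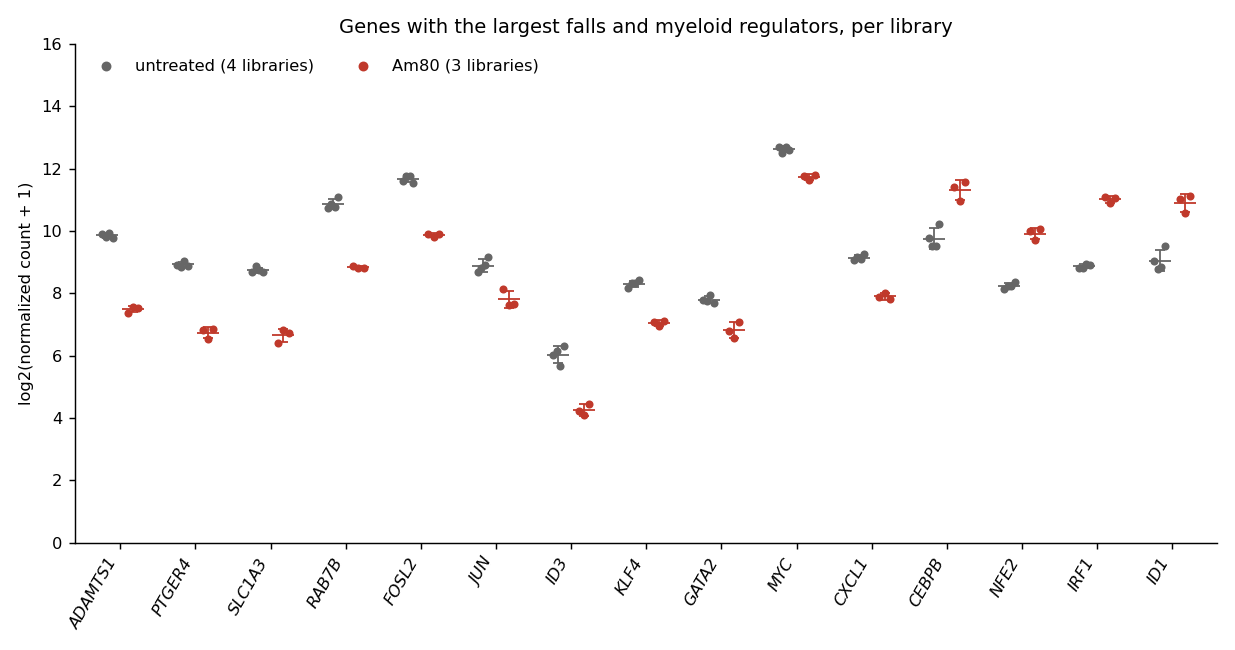
Each point is 1 library, as log2(normalized count + 1), for 4 untreated (grey) and 3 Am80 (red) libraries, and bars show the mean ± SD on that scale. From ADAMTS1 to CXCL1 the Am80 points lie below the untreated ones, and for CEBPB, NFE2, IRF1 and ID1 they lie above.

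Early response genes split as well. Of 19 immediate early genes 5 rose and 5 fell (52.6% called, against 9.98% of all tested genes), with a median of 0.04. Beside FOSL2 the AP-1 members JUN (-1.08 ± 0.14), FOS (-0.75 ± 0.10) and FOSL1 (-0.73 ± 0.10) fell, while JUND rose by 0.92 ± 0.12 and the small Maf protein MAFF by 2.32 ± 0.22. Of 28 genes of TGF-beta and BMP signalling 6 were higher and 3 lower (32.1% called), with a median of 0.14. ID1, an inhibitor of helix-loop-helix factors, read 522, 442, 456 and 741 untreated and 2095, 1528 and 2209 with Am80 (1.86 ± 0.14), whereas its paralogue ID3 read 64.1, 70.2, 49.8 and 78.7 untreated and 17.6, 16.1 and 21 with Am80 (-1.78 ± 0.25). Both pairs of groups were apart. LTBP3 rose by 1.64 ± 0.09 and SKIL, a repressor of SMAD signalling, by 1.27 ± 0.09. Of 18 ERK feedback genes 4 rose and 2 fell (33.3% called), with DUSP6, an ERK phosphatase, up by 1.77 ± 0.13 and DUSP2 at -1.07 ± 0.22. Of 29 WNT, Notch and Hedgehog genes 5 rose and 4 fell (31.0% called). Among them were FZD7 (1.74 ± 0.08), WNT5A (1.54 ± 0.23) and the Notch ligands DLL4 (1.34 ± 0.10), JAG1 (-0.98 ± 0.11) and JAG2 (-0.80 ± 0.12).

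MYC and some cell cycle and apoptosis regulators changed. In the MYC network 0 of 22 genes were higher and 3 lower (13.6% called, against 9.98% of all tested genes), with a median of -0.24. Every Am80 library lay below every untreated one in 13 of the 22 (against 15% of all tested genes), and above in 0. MYC itself read 6563, 5825, 6667 and 6264 untreated and 3458, 3163 and 3566 with Am80 (-0.90 ± 0.07, adjusted p = 2.07e-09, limma), and MXI1, a MAX partner, fell by 0.74 ± 0.08. CAD, which starts pyrimidine synthesis, was at -0.60 and missed the fold limit without Am80 replicate 2 (-0.53). Of 41 cell cycle genes 3 rose and 2 fell (12.2% called, near the 9.98% of all tested genes), with a median of 0.01. The inhibitors CDKN2D (1.48 ± 0.15) and CDKN1A (0.69 ± 0.09) rose, CDKN2B fell by 0.90 ± 0.16, and CDK6 was at -0.64 with untreated replicate 4 (2412) near the Am80 libraries (2138 to 2296). Of 31 apoptosis genes 6 rose and 0 fell (19.4% called), with a median of 0.12, and in 13 all Am80 libraries lay above all untreated ones (against 15.5% of all tested genes). The BH3-only gene BIK read 23.7, 37.9, 22.4 and 25.5 untreated and 279, 239 and 270 with Am80 (3.25 ± 0.15), BMF rose by 1.69 ± 0.11, CASP9 by 1.47 ± 0.11 and the survival gene BCL2A1 by 1.29 ± 0.17. Of 23 p53 target genes 2 rose and 1 fell (13% called, near the 9.98% of all tested genes). TP53I3, a quinone oxidoreductase, rose by 1.97 ± 0.10.

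Among stem and progenitor genes 3 of 21 were higher and 4 lower (33.3% called, against 9.98% of all tested genes), with a median of 0.15. NGFR, the low-affinity neurotrophin receptor, read 183, 162, 202 and 218 untreated and 1331, 970 and 1384 with Am80 (2.67 ± 0.13), NPR3 rose by 2.37 ± 0.15, and WT1, a zinc finger factor of leukaemic blasts, fell by 0.87 ± 0.15. Of 16 antigen presentation genes 2 were higher (12.5% called, near the 9.98% of all tested genes). CD1D, which presents lipids, read 1459, 1467, 1341 and 1715 untreated and 13836, 13259 and 13959 with Am80 (3.20 ± 0.07), and HLA-F was not called without Am80 replicate 2 (0.67, adjusted p = 0.0825, limma), which left 1. Of 21 ATF4 target genes 4 rose and 1 fell (23.8% called), with DDIT4, an inhibitor of mTORC1, up from 176 to 963 (2.46 ± 0.13). Beside the NF-kappaB genes, lists with a share of calls below that of all genes were 15 heat shock genes (0 called, by limma, median 0.10), 17 NRF2 targets (1 higher, AKR1C1 at 0.97), 28 cholesterol and LXR genes (2 higher, MYLIP at 0.78 and IDI1 at 0.63, median 0.24) and 44 chromatin modifiers (KAT6B higher and HDAC9 lower, median -0.12). In 12 of the 28 cholesterol and LXR genes all Am80 libraries lay above all untreated ones, and in 1 below, against 15.5% and 15% of all tested genes.

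**Figure D4:**
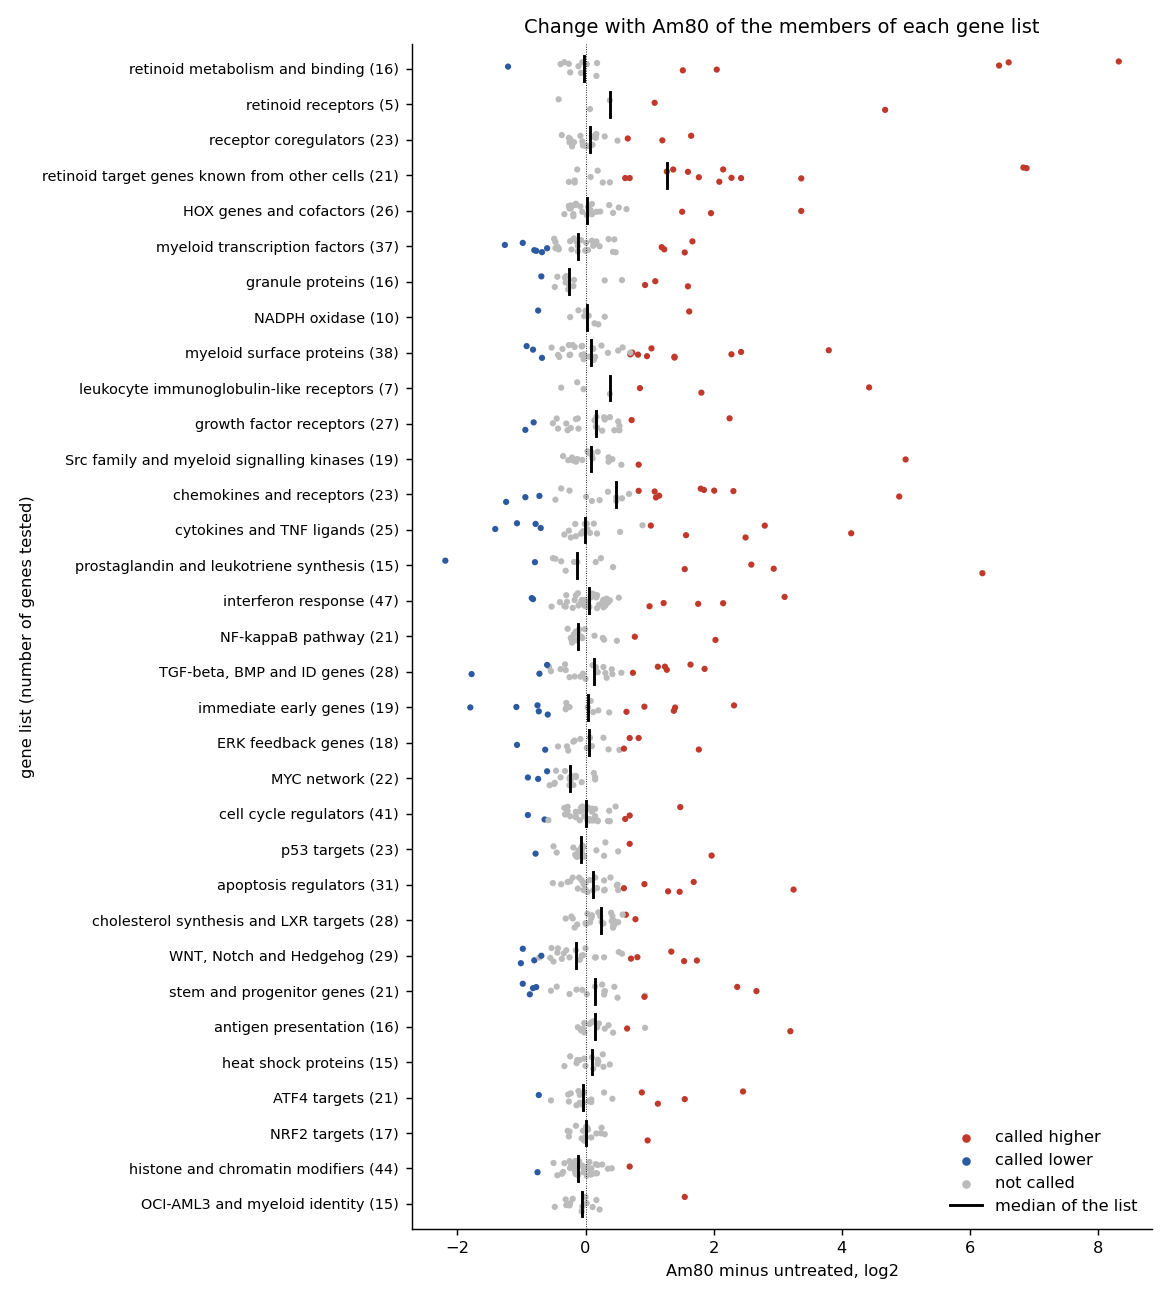
Each row is a gene list with at least 5 tested genes, each point the log2 difference between Am80 and untreated cells of 1 gene (red called higher, blue called lower, grey not called), and the black bar is the median of the list. The bar of the retinoid target list stands at 1.27, and those of most other lists lie close to 0, with single genes far to the right.

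At the same dose and time, Am80 and ATRA gave responses that could seldom be separated. This 1 pair of compounds was compared over 14632 genes, and 6 (0.041%) were called different, or 34 with no limit on the fold. At an unadjusted p under 0.05 by limma there were 2035 genes. That is a larger share than the 0.05 to be had with no difference at all. The source of this excess, in the compounds or in single libraries, was not tested. Among the 1461 genes called for Am80, the median absolute difference from ATRA was 0.144 on the log2 scale, and for 911 (62.4%) the 95% interval of the difference lay within 1.5-fold either way. CYP26B1 read 545, 619 and 552 with ATRA against 404, 326 and 436 with Am80, a difference of -0.57 (interval -1.03 to -0.10, adjusted p = 0.252, limma). The interval was -0.35 to 0.02 for TGM2, -0.25 to 0.35 for DHRS3 and -0.18 to 0.68 for RARB. A missed threshold does not show that the compounds act alike. Both were set against the same untreated libraries, so their shared direction is no separate evidence.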

How the data were processed

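RNA-seq of OCI-AML3 cells was analysed from 1 table of 62700 genes in 16 libraries. The authors deposited normalized counts (a signal per gene), that is, reads divided by DESeq2 size factors. The submitters' processing notes name FastQC, cutadapt, STAR, featureCounts and DESeq2. Genome build, annotation and strand setting are not given in the sources used here, and the labels and the study name different extraction and library kits. Every value was a whole number of reads once multiplied by its library's size factor (100% within a tolerance of 0.01), so reads were recovered for count tests.

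Groups followed the treatment labels. Genes whose mean over the Am80 and untreated libraries reached 10 normalized counts were tested with limma 3.58.1 (R 4.3.3) on log2(normalized count + 1), fitted to all 16 libraries with a coefficient for each group and a mean-dependent prior. Fold changes are on that scale, which understates low genes. P-values were adjusted by Benjamini-Hochberg. Values with ± are the log2 difference and its SE. Alternatives included edgeR 4.0.16 and DESeq2 1.42.0 on recovered reads. The tests were tried on simulated reads with known changes first.

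Named genes were the 15 largest rises and falls with a mean of at least 50 in the higher group and no overlap between groups, the tested retinoid metabolism and receptor genes, up to 4 called genes of each list in each direction (or the most abundant where none was called) and the 5 with the smallest p between Am80 and ATRA. Others were chosen after their values were seen: BATF2, TRIM31, the genes under the other observations, the further differences from ATRA and list members given as context. The comparison, its gene lists and the alternatives were chosen with earlier results of these data known. Results for some genes of the lists and of the naming rule are not reported here. Gene types came from GENCODE 29 by identifier. The sequences are RefSeq promoters (GRCh38.p14), matched by symbol. Counted reads were 11963898 to 33789718 over the libraries of both groups, and no pair of replicates agreed within sampling noise.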

Additional observations from a re-analysis of the deposited data

Results flagged for a closer look

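Among 192 named genes with any spread in the 4 untreated libraries, 8 had a single library set apart by more than Dixon's 95% critical value. Chance alone sets apart about 1 group in 20, and this number is not above that. The genes share the same 4 libraries, so the number cannot tell chance from a library that stands apart. In all 8 it was untreated replicate 4, which also lay farthest from its group mates (median absolute log2 distance 0.221 against 0.092 to 0.134). It was the lowest for ITGAL (731 against 852 to 867), PDGFA (113 against 147 to 153), SKIL (896 against 1160 to 1208), POU2F2, a POU factor (78.7 against 122 to 127), and ALDH1A3 (13.3 against 23.1 to 25.1), and the highest for C3orf80 (1251 against 945 to 994). For CYP26B1 and TRIM31 it held the only untreated read, at 1.11 normalized counts, and that single read decides the outcome. The same library had the highest share of reads from ribosomal protein genes among untreated libraries (7.68% against 5.55 to 5.97%). The part of that share in these values was not tested. All 8 genes were still called for Am80 against untreated cells without it.

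The effects of Am80 and ATRA differed by limma in 6 genes, with adjusted p from 0.0487 to 0.049. Am80 was higher for ANAPC10, a subunit of the anaphase-promoting complex (0.72), PFDN4, a prefoldin subunit (0.62), CENPQ, a kinetochore protein (0.59), and EVI2A (0.59), and lower for the glypican GPC2 (-0.82) and the pseudogene TEX14BP (-1.07). CENPQ read 702, 749 and 602 with Am80, 452, 393 and 520 with ATRA and 404 to 453 untreated. TEX14BP read 14.9, 15.5 and 15.9 with Am80, 29.9, 38 and 33.1 with ATRA and 30.5 to 39.9 untreated. RGS18 (0.53), LARP7 (0.49), PDCD10 (0.53) and HAT1 (0.49) had small p-values too but missed the fold limit.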

How the results depend on the processing

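For Am80 against untreated cells, 896 genes higher and 565 lower became 2207 and 1972 with no limit on the fold and 473 and 126 at an adjusted p under 0.01 and a fold of 2. Under the other alternatives both counts stayed within 1.5 times. Leaving out 1 library at a time gave 852 to 931 higher and 498 to 656 lower. The largest of these followed from leaving out Am80 replicate 3 and the smallest count of genes lower from leaving out Am80 replicate 2. Of 173 named genes called, 158 were called in every such fit, and none changed direction under any alternative after being called. HLA-F, SIGLEC1 and PTCH1 were among those that lost their calls most often. REL (0.54), IL6ST (0.58), JAG2 (-0.57) and KAT6B (0.51) were among those that missed the fold limit without both libraries that stood apart. The 6 genes that differed between Am80 and ATRA were not stable: 0 were called with no filter on the mean, with only the groups compared, with TMM scaling, with scaling to total reads and at the stricter threshold, 15 by DESeq2, 34 with no limit on the fold, 39 without both libraries that stood apart, and 0 to 87 without 1 library at a time (87 without Am80 replicate 3, 27 without ATRA replicate 3, otherwise 0). The cause was not tested. Deviations of same-numbered Am80 and untreated libraries from their group means correlated at -0.06, 0.36 and -0.12. A pair with different numbers reached 0.4 (Am80 replicate 1 and untreated replicate 4). So few pairs cannot show whether numbers mark a shared batch. A replicate block gave 916 higher, 637 lower and 34 between Am80 and ATRA. Thinning the reads and leaving out both libraries were chosen after seeing the data. Depth limits low genes: 3 reads over the untreated group are 0.856 normalized counts.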

Other observations

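The genes here were chosen after their values were seen. Well-counted genes outside the lists rose too. THBD, thrombomodulin, a cofactor that turns thrombin towards protein C, read 2516, 2265, 2578 and 2537 untreated and 21832, 19378 and 21780 with Am80 (3.08 ± 0.06). LRG1, a leucine-rich glycoprotein of neutrophil granules, read 841, 827, 786 and 1072 untreated and 11296, 9571 and 11526 with Am80 (3.62 ± 0.09). SLC2A5, the fructose transporter GLUT5, went from a mean of 1253 to 13116 (3.39 ± 0.07) and GNG2, a G protein gamma subunit, from 250 to 1864 (2.90 ± 0.08). For each of them all Am80 libraries lay above all untreated ones.

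Outside the lists, PTGDR2, a prostaglandin D2 receptor, rose from 3.08 to 61.3 (3.99 ± 0.29) and SLCO2A1, the prostaglandin transporter, from 5.17 to 66.5 (3.92 ± 0.49). A4GALT, the Gb3 synthase, rose from 56.5 to 718 (3.67 ± 0.18), CHST15, a chondroitin sulfotransferase, from 26.1 to 346 (3.72 ± 0.17) and ST6GALNAC5, a sialyltransferase, by 3.30 ± 0.17. The DNA sensor AIM2 rose by 2.99 ± 0.20 and the adhesion receptor ADGRG3 by 4.57 ± 0.27. NPY1R, a neuropeptide Y receptor like NPY5R, read 389, 375, 414 and 367 untreated and 123, 170 and 122 with Am80 (-1.49 ± 0.11).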
